A study of Mus musculus with 23 samples.

Results

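The cell cycle genes described here are 52 genes of DNA replication and mitosis, taken by their symbols from the RNA count table of sorted liver lymphocytes, out of 35645 genes in that table. They fall into 21 genes of replication and S phase, 25 genes of mitosis, 4 regulators of G1 and 2 genes tied to proliferation but not to a single phase. All 52 passed the filter on low counts that left 17124 genes for testing. Some had few counts in a population, such as Bub1 with at most 7 counts in a DP library. RNA was sequenced from 15 libraries of 6 mice, each library holding every sorted cell of its population from 1 mouse, so a population has 1 library per animal. The DP population, ILC1s with present granzyme C protein and the granzyme C fate-map mark (GzmC+GzmcFM+), gave libraries of mice 3, 4, 5 and 6. The FMSP population (GzmC-GzmcFM+), which carries the mark without present granzyme C protein, gave libraries of the same 4 mice. The DN population (GzmC-GzmcFM-), with neither, gave libraries of mice 2, 4 and 6. NK cells positive for an S1pr5 reporter (S1pr5eGFP+) gave libraries of mice 1, 4, 5 and 6. Strain, age and sex are not given in the sources used here, and every population comes from reporter animals.

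Group 1 innate lymphoid cells of the liver comprise circulating NK cells and tissue-resident ILC1s, and both can divide when they mature or respond to cytokines. A cell that enters the cycle first induces E2F target genes, which license origins, unwind DNA and supply nucleotides in S phase. Mitotic genes follow in G2 and M, when a complex with MuvB, B-Myb and FOXM1 activates them at promoters that carry a CHR element, and they are low in resting cells. In bulk RNA a lower level can mean fewer cells of a type or less RNA per cell, and these cannot be told apart here.

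Promoters are shown for 6 members, at which chromatin access was measured, as it was at most others. These 6 were picked by hand, so their motifs do not stand for all members. Each line holds the 160 bases before the start site, 5′ to 3′ on the strand of the gene, from RefSeq (GRCm38.p6, the assembly of the mm10 build). Capitals mark matches to E2F motifs, to the CHR element or to the CCAAT box. Matches farther upstream are not printed, namely a CHR match of Ccnb2, CHR and CCAAT matches of Top2a and a CCAAT match of Cdk1.
Mcm5: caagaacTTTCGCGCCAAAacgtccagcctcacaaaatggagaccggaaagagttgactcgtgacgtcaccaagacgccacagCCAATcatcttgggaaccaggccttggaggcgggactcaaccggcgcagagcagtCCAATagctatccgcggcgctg
Cdc6: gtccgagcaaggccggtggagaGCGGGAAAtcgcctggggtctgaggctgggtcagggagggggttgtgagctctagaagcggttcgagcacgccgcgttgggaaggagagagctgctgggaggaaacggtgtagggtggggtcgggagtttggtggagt
Cdk1: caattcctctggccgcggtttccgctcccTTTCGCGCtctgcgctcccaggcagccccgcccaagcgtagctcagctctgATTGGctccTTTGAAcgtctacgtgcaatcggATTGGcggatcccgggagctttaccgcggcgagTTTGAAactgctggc
Top2a: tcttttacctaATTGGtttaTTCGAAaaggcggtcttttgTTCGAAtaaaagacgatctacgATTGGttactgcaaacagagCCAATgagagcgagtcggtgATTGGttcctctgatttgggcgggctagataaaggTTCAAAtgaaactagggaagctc
Ccnb2: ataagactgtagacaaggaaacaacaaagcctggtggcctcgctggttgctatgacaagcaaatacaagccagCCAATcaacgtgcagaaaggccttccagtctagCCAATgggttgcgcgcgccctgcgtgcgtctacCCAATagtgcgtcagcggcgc
Cdc20: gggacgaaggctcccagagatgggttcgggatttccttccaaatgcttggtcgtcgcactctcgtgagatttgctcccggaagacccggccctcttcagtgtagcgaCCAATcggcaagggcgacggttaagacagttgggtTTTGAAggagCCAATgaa
Mcm5 lies at chr8:75109349-75109508 (plus strand) and Cdc6 at chr11:98907991-98908150 (plus strand), both genes of replication licensing. Cdk1 lies at chr10:69352913-69353072 (minus strand) and encodes the mitotic kinase, and Top2a lies at chr11:99024190-99024349 (minus strand) and encodes the topoisomerase that untangles sister chromatids. Ccnb2 lies at chr9:70421555-70421714 (minus strand) and encodes a partner of that kinase. Cdc20 lies at chr4:118437344-118437503 (minus strand) and encodes an activator of the anaphase-promoting complex. In the Mcm5 promoter the TTTCGCGC and GCGCCAAA matches overlap, so they make up 1 run of capitals. The motifs searched on both strands of the 250 bases before the start were TTTCCCGC, TTTCGCGC, TTTGCCGC and TTTGGCGC for E2F, TTTGAA and TTCGAA for CHR, and CCAAT. Promoter windows were found for 41 of the 52 genes, in 47 windows because some genes have several starts. An E2F match was present in 25% of the 20 replication and S phase windows, 9.52% of the 21 mitotic windows and 1.86% of all 32851 windows in the table. A CHR match was present in 20% of the replication and S phase windows, 47.6% of the mitotic windows and 17.1% of all windows. A CCAAT match was present in 75% of the replication and S phase windows, 85.7% of the mitotic windows and 33.8% of all windows. Of the 47 windows, 43 (91.5%) overlapped a peak of the ATAC-seq table.

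Library totals ran from 51641248 to 73309063 counts. Gzmc averaged 374 ± 83.6 CPM (counts scaled to a common library total after TMM scaling) in DP, 30.4 ± 8.68 in FMSP, 11.4 ± 1.87 in DN and 2.31 ± 1.34 in NK cells (SD, n = 4, 4, 3 and 4). S1pr5 averaged 6.73 ± 3.48 CPM in DP, 17.6 ± 3.45 in FMSP, 60.01 ± 34.9 in DN and 510 ± 248 in NK cells. The 5 shared NK and ILC1 markers reached 10 CPM in the mean of every population. The DN library of mouse 2 stood apart, with a summed level of those shared markers of 4664 CPM against 7996 to 13533 CPM in the other 14 libraries. For the comparisons with DN cells, the counts, the medians and the genes closest to the threshold are therefore also given without it.

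DP and FMSP cells held the least mitotic RNA, and DN cells the most. Summed over the 25 mitotic genes, DP cells of mice 3, 4, 5 and 6 had 201, 121, 125 and 174 CPM, and FMSP cells of the same mice had 140, 136, 135 and 146 CPM. DN cells of mice 2, 4 and 6 had 2068, 582 and 353 CPM, and NK cells of mice 1, 4, 5 and 6 had 220, 213, 492 and 315 CPM. All 8 DP and FMSP libraries lay below all 3 DN and all 4 NK libraries, while DN and NK cells overlapped. Over the 21 replication and S phase genes the sums were closer together. DP cells averaged 883 ± 106 CPM and FMSP cells 858 ± 123 CPM (SD, n = 4 each). DN cells of mice 2, 4 and 6 had 2163, 1162 and 938 CPM, and NK cells averaged 1052 ± 122 CPM (SD, n = 4). Here the groups overlapped, since DP of mouse 3 with 1037 CPM and FMSP of mouse 3 with 1031 CPM were above DN of mouse 6. Among the libraries of mice 4 to 6, DP and FMSP had 739 to 855 CPM, below the 938 to 1162 CPM of DN and NK cells.

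**Figure D1:**
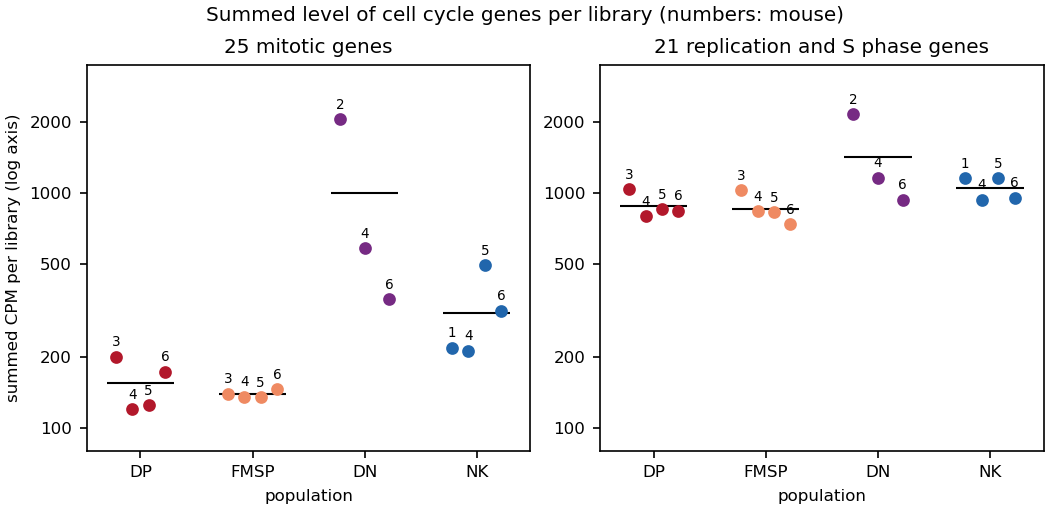
Summed CPM of the 25 mitotic genes (left) and the 21 replication and S phase genes (right) in each of the 15 libraries, on a log axis, by population, with the mouse number above each point and the group mean as a line. Mitotic sums in DP and FMSP cells run from 121 to 201 CPM, below the 213 to 492 CPM of NK cells and the 353 to 2068 CPM of DN cells. The S phase sums overlap between populations, but in mice 4 to 6 those of DP and FMSP cells lie below those of DN and NK cells.

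The mitotic sum relative to the S phase sum of the same library averaged 0.175 ± 0.0300 in DP and 0.165 ± 0.0255 in FMSP cells (SD, n = 4 each). It was 0.956, 0.501 and 0.377 in DN cells of mice 2, 4 and 6, and averaged 0.293 ± 0.106 in NK cells (SD, n = 4). Because CPM is not scaled to gene length, this ratio compares libraries and not the gene groups. The Mcm2 to Mcm7 genes summed to 548 ± 103 CPM in DP and 518 ± 113 CPM in FMSP cells, to 1106, 641 and 484 CPM in DN cells of mice 2, 4 and 6, and to 633 ± 87.6 CPM in NK cells. The other S phase genes summed to 334 ± 18.0 CPM in DP and 340 ± 19.3 CPM in FMSP cells, to 1057, 522 and 454 CPM in DN cells, and to 419 ± 58.4 CPM in NK cells. Without the Mcm2 to Mcm7 genes, all 8 DP and FMSP libraries, of which the highest was FMSP of mouse 3 at 362 CPM, were below all 3 DN and all 4 NK libraries.

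Within a mouse, DP and FMSP lay below DN and NK cells in both the mitotic and the S phase sum, more so in the former. In mouse 4 the mitotic sum of DP was 0.207 times and that of FMSP 0.234 times that of DN, and in mouse 6 these ratios were 0.492 and 0.414. The S phase sums gave 0.685 and 0.719 in mouse 4, and 0.898 and 0.788 in mouse 6. Against NK cells of the same mouse, the mitotic sum of DP was 0.565, 0.255 and 0.551 times in mice 4, 5 and 6, and that of FMSP 0.637, 0.275 and 0.464 times. The S phase sum of DP was 0.848, 0.738 and 0.882 times, and that of FMSP 0.891, 0.714 and 0.774 times. DN of mouse 4 had 2.73 times and DN of mouse 6 had 1.12 times the mitotic sum of the NK cells beside it, and the S phase sums were 1.24 and 0.983 times.

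DN of mouse 2 was the highest of the 15 libraries for 45 of the 52 genes, including all 25 mitotic genes and 18 of 21 S phase genes, where 18.7% of all genes tested peaked in that library. The 7 exceptions were Cdt1, E2f2, Pcna, Ccnd2, Ccnd3, Cdkn1b and Hmgb2. Among the other 14 libraries, DN of mouse 4 was the highest for 27 of the 52 genes (16 mitotic and 9 S phase), against 7.12% of all genes. All 3 DN libraries lay above all 8 DP and FMSP libraries for 22 of the 52 genes (12 mitotic and 9 S phase), against 1.27% of all genes. Within both mouse 4 and mouse 6, DN exceeded DP for 39 genes (27.2% of all genes did so) and exceeded FMSP for 44 genes (24.4% of all genes). DN exceeded NK within both mice for 30 of the 52 genes (14 S phase and 16 mitotic), where 31.9% of all genes did so.

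Among the licensing genes, the Mcm2 to Mcm7 genes, which encode the replicative helicase, were present in every library. Mcm6 had 179, 126, 145 and 138 CPM in DP cells and 177, 166, 143 and 103 CPM in FMSP cells of mice 3 to 6. It had 271, 180 and 148 CPM in DN cells of mice 2, 4 and 6, and 234, 170, 225 and 197 CPM in NK cells of mice 1, 4, 5 and 6. The ranges of all 4 populations overlapped. Mcm5 was highest in the libraries of mice 1 to 3 whatever the population, at 146 CPM (DP, mouse 3), 150 CPM (FMSP, mouse 3), 206 CPM (DN, mouse 2) and 167 CPM (NK, mouse 1). The 11 libraries of mice 4 to 6 had 55.2 to 94.6 CPM of Mcm5. Mcm2, Mcm3, Mcm6 and Mcm7 were likewise highest within each population in its library of mice 1 to 3. Mcm4 was lowest there in DP, FMSP and NK cells and highest there in DN cells. The sum of Mcm2 to Mcm7 was also highest in these libraries, at 695 CPM (DP, mouse 3), 669 (FMSP, mouse 3), 1106 (DN, mouse 2) and 747 (NK, mouse 1). Cdc6, which loads that helicase with Cdt1, had 2.37 to 8.80 CPM in DP, 0.476 to 7.22 in FMSP, 53.1, 11.97 and 11.5 in DN and 2.13 to 12.3 CPM in NK cells. Cdt1 showed no such order, at 42.1 ± 11.5 CPM in DP, 47.1 ± 27.2 in FMSP, 40.2 ± 7.42 in DN and 53.9 ± 31.8 CPM in NK cells.

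Several genes of origin firing and nucleotide supply had their highest levels in DN cells. Cdc45, a subunit of the active helicase, had 5.58 ± 1.38 CPM in DP, 3.97 ± 2.95 in FMSP, 25.3, 20.7 and 10.5 in DN of mice 2, 4 and 6 and 8.01 ± 2.10 CPM in NK cells. Gins1, a subunit of the same helicase, had at most 4.17 CPM in the DP and FMSP libraries and 8.85, 8.00 and 5.25 CPM in DN cells. Rrm2, the S phase subunit of ribonucleotide reductase, had 25.04, 11.1, 16.8 and 23.0 CPM in DP cells and 17.7, 9.94, 24.5 and 19.6 CPM in FMSP cells. DN cells had 233, 60.01 and 39.7 CPM of Rrm2 and NK cells 25.7, 26.8, 55.8 and 37.3 CPM, all above the 8 DP and FMSP libraries. Rrm1, the large subunit of that enzyme, averaged 69.8 ± 18.9 CPM in DP, 73.3 ± 11.1 in FMSP, 96.9 ± 34.3 in DN and 86.2 ± 14.2 CPM in NK cells, and the groups overlapped. Tyms, which makes thymidylate, had 25.3 ± 7.001 CPM in DP, 26.2 ± 5.34 in FMSP, 53.5, 35.5 and 38.3 in DN and 18.5 ± 6.96 CPM in NK cells. Pcna, the sliding clamp, ranged only from 81.6 to 159 CPM over all 15 libraries.

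The cyclin E genes and E2F factors differed in their order. Ccne1, a cyclin E gene, had 0 to 10.9 CPM in DP, 0.170 to 10.0 in FMSP, 74.3, 23.4 and 13.7 in DN and 5.47 to 14.97 CPM in NK cells. E2f1, an activator of S phase genes, had 6.46 ± 1.92 CPM in DP, 6.19 ± 6.56 in FMSP, 39.1, 19.4 and 13.2 in DN of mice 2, 4 and 6 and 7.83 ± 0.990 CPM in NK cells. E2f2, another activator, had 0, 0.127, 3.60 and 2.30 CPM in DP and 4.52, 4.01, 5.80 and 6.32 CPM in FMSP cells of mice 3 to 6. It had 9.63, 11.7 and 9.11 CPM in DN cells and 26.3, 15.3, 20.05 and 19.2 CPM in NK cells, so the 4 populations did not overlap. Uhrf1, which carries DNA methylation through replication, had 7.80 ± 5.09 CPM in DP, 11.0 ± 4.21 in FMSP, 83.8, 28.8 and 16.4 in DN and 14.3 ± 4.84 CPM in NK cells.

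**Figure D2:**
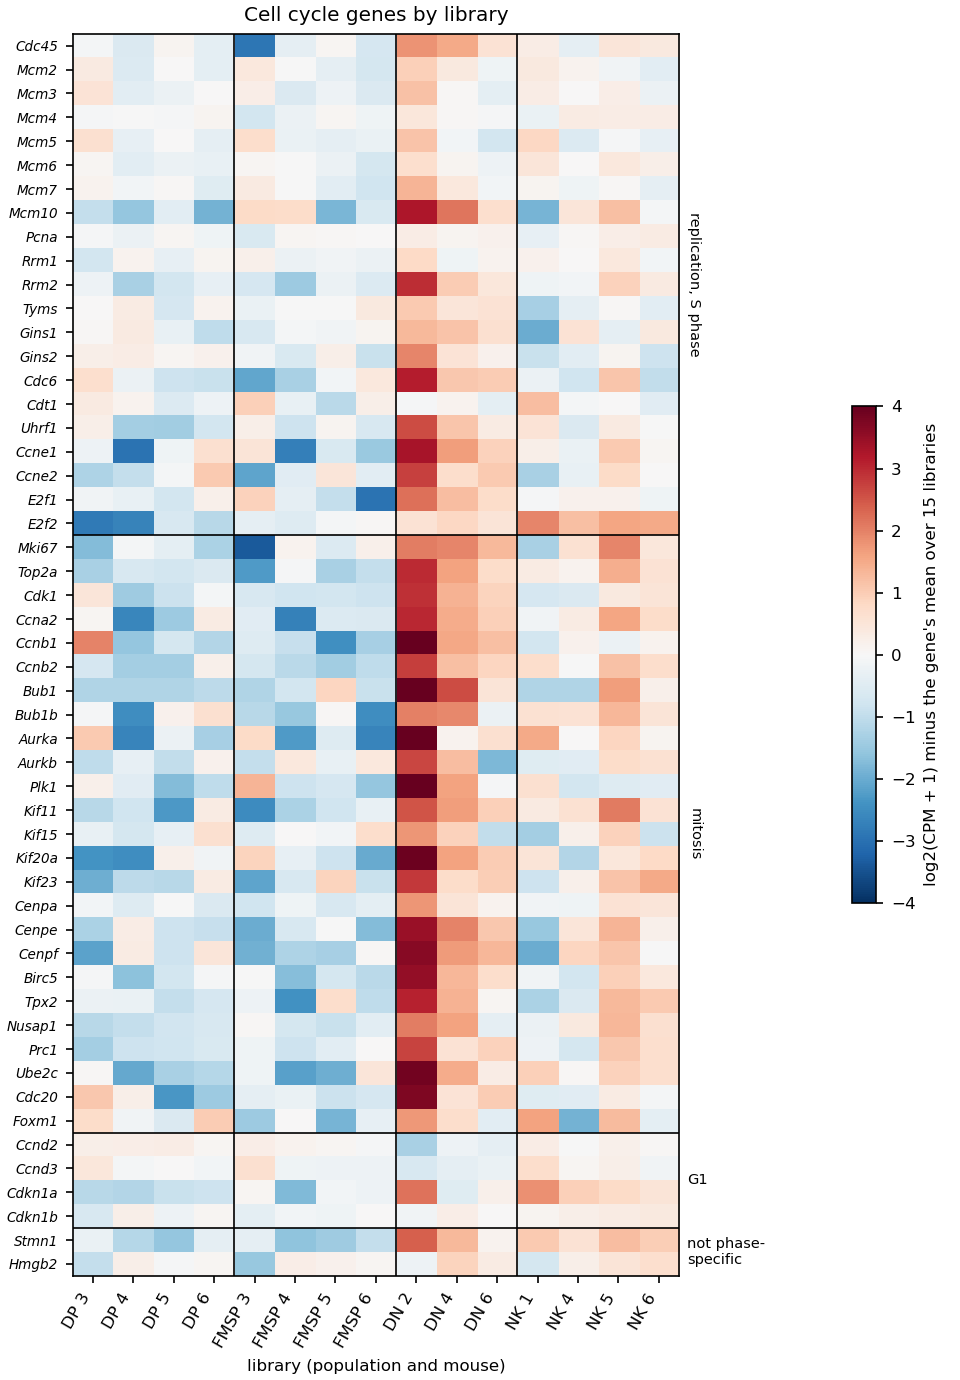
Heat map of the 52 genes in the 15 libraries, as log2(CPM + 1) minus the mean of the gene over all libraries, with genes grouped by role and libraries by population and mouse. DN of mouse 2 is highest for 45 of the 52 genes, and the mitotic block is lowest in DP and FMSP cells.

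The kinases and cyclins of mitosis were highest in DN of mouse 2, and the order of the other populations differed between genes. Top2a had 8.16, 13.3, 12.5 and 13.97 CPM in DP cells and 3.64, 20.9, 8.23 and 10.6 CPM in FMSP cells of mice 3 to 6. DN cells of mice 2, 4 and 6 had 177, 67.6 and 36.6 CPM, and NK cells of mice 1, 4, 5 and 6 had 27.3, 23.7, 60.5 and 32.5 CPM. DP and FMSP cells lay below every DN and NK library, while DN and NK cells overlapped. Ccnb2 had 5.03, 2.80, 2.79 and 10.1 CPM in DP cells and 4.95, 3.54, 2.74 and 3.81 CPM in FMSP cells. It had 65.3, 21.4 and 16.4 CPM in DN cells and 14.8, 8.50, 20.9 and 14.8 CPM in NK cells, so FMSP did not overlap with NK cells and DP did, through DP of mouse 6. Cdk1 had 16.8, 3.78, 6.09 and 11.0 CPM in DP, 6.19 to 7.23 in FMSP, 95.9, 32.1 and 22.5 in DN and 6.92, 7.56, 15.8 and 17.3 CPM in NK cells. Ccnb1, a mitotic cyclin, had 27.4, 1.42, 3.35 and 2.21 CPM in DP, 0.314 to 4.05 in FMSP, 162, 19.9 and 15.5 in DN and 3.34 to 7.09 CPM in NK cells.

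Mki67, the gene of the Ki-67 proliferation antigen, had 3.24, 12.2, 9.66 and 4.82 CPM in DP and 0.357, 14.3, 8.50 and 15.1 CPM in FMSP cells of mice 3 to 6. It had 56.7, 53.4 and 33.7 CPM in DN cells of mice 2, 4 and 6 and 4.67, 20.2, 53.0 and 18.3 CPM in NK cells. All 3 DN libraries lay above all 8 DP and FMSP libraries, and NK cells overlapped with DP and FMSP and with DN cells. For Aurka, a spindle-pole kinase, DN of mouse 2 stood alone, with 0.0316 to 12.2 CPM in DP, 0.0353 to 9.90 in FMSP, 144, 6.06 and 9.03 in DN and 5.42 to 17.2 CPM in NK cells. Plk1, a kinase of mitotic entry, had 3.21 ± 2.29 CPM in DP, 5.46 ± 6.45 in FMSP, 114, 18.3 and 5.09 in DN and 4.68 ± 2.82 CPM in NK cells. Aurkb, the kinase of the chromosomal passenger complex, had 44.8, 15.8 and 1.08 CPM in DN cells, and the last of these was the lowest of all 15 libraries.

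Spindle, kinetochore and cytokinesis genes were likewise highest in DN of mouse 2, and overlap among the other libraries differed between genes. Kif11, the motor that separates spindle poles, had 0.470 to 7.94 CPM in DP, 0.255 to 4.80 in FMSP, 39.7, 21.7 and 13.0 in DN and 8.29, 9.97, 29.5 and 9.73 CPM in NK cells. Prc1, which bundles the central spindle, had 4.69 ± 1.17 CPM in DP, 7.37 ± 2.02 in FMSP, 66.9, 14.5 and 18.6 in DN and 12.6 ± 7.20 CPM in NK cells. Nusap1, a spindle protein, had 3.12 to 4.72 CPM in DP, 3.84 to 8.09 in FMSP, 36.1, 26.4 and 5.88 in DN and 6.49 to 21.3 CPM in NK cells. All 8 DP and FMSP libraries were below all DN libraries for Kif11 and Prc1, and FMSP overlapped with DN of mouse 6 for Nusap1. Birc5, the survivin subunit of the passenger complex, had 8.26 ± 4.09 CPM in DP, 6.71 ± 3.81 in FMSP, 149, 31.5 and 19.97 in DN and 14.4 ± 7.42 CPM in NK cells. Cenpe and Cenpf, genes of the outer kinetochore, did not exceed 5.56 CPM and 6.89 CPM in any DP or FMSP library, and had at least 10.4 CPM and 13.2 CPM in every DN library. Bub1, a checkpoint kinase, had at most 0.123 CPM in DP and 3.25 CPM in FMSP cells, 37.7, 13.0 and 2.28 CPM in DN cells and at most 6.37 CPM in NK cells. Foxm1, the factor of the mitotic programme, overlapped, with 1.97 to 8.10 CPM in DP and 13.98, 6.18 and 2.30 CPM in DN cells.

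The D-type cyclins were lowest in DN cells, while the CDK inhibitors listed differed from each other. Ccnd2, a D-type cyclin that drives exit from G1, had 1337, 1374, 1403 and 1186 CPM in DP cells and 1356, 1260, 1190 and 1099 CPM in FMSP cells of mice 3 to 6. It had 466, 988 and 880 CPM in DN cells of mice 2, 4 and 6 and 1384, 1125, 1302 and 1162 CPM in NK cells, so DN cells lay below every library of the other populations. Ccnd3, the other D-type cyclin listed, averaged 1250 ± 245 CPM in DP, 1216 ± 393 in FMSP, 874 ± 114 in DN and 1394 ± 362 CPM in NK cells, and again the DN cells were below all others. Cdkn1a, an inhibitor of cyclin-dependent kinases, had 5.07, 4.87, 6.15 and 6.42 CPM in DP cells and 13.0, 2.87, 11.1 and 10.4 CPM in FMSP cells. DN cells had 58.8, 8.39 and 14.2 CPM and NK cells 45.96, 24.4, 21.4 and 17.8 CPM, so both marked ILC1 populations lay below all NK libraries. Cdkn1b, the other inhibitor listed, had 40.6 ± 10.4 CPM in DP, 38.4 ± 4.27 in FMSP, 44.8 ± 6.41 in DN and 52.2 ± 4.47 CPM in NK cells.

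Stmn1, which encodes the microtubule destabiliser stathmin, had 67.8, 35.9, 27.3 and 63.2 CPM in DP cells and 62.6, 25.9, 29.8 and 41.3 CPM in FMSP cells of mice 3 to 6. It had 426, 202 and 89.2 CPM in DN cells of mice 2, 4 and 6 and 169, 121, 193 and 162 CPM in NK cells. All 8 marked ILC1 libraries lay below all 7 others. Hmgb2, a chromatin protein abundant in dividing cells, had 172 ± 53.5 CPM in DP, 172 ± 72.6 in FMSP, 246 ± 92.0 in DN and 222 ± 78.6 CPM in NK cells, with overlap throughout.

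**Figure D3:**
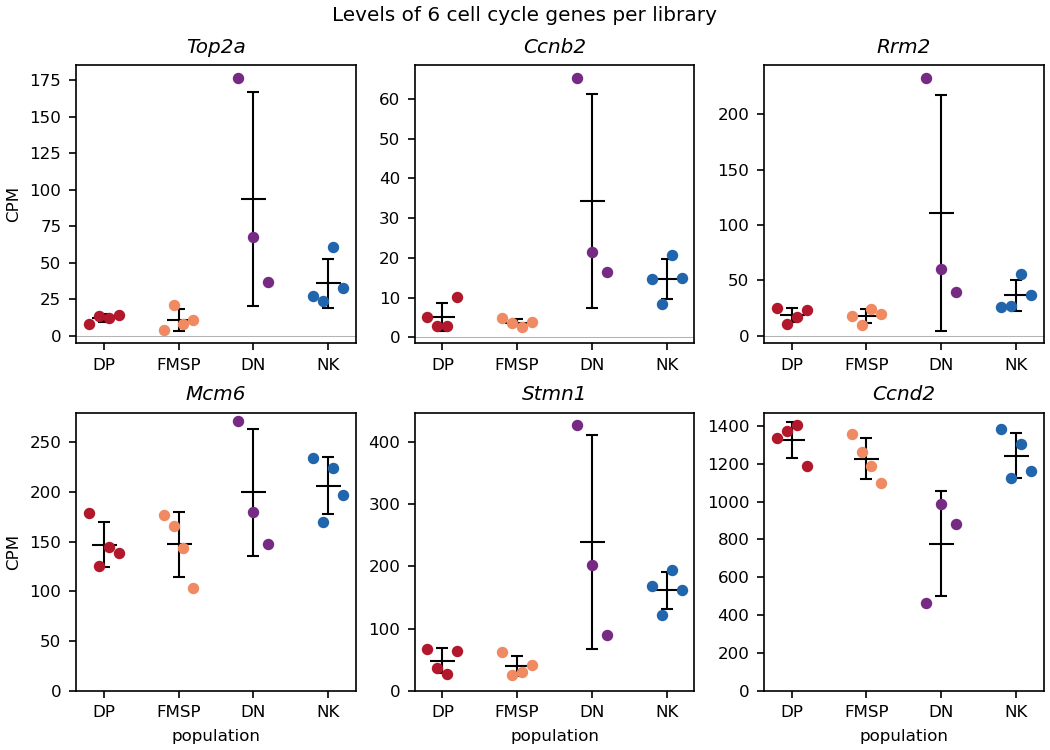
CPM of Top2a, Ccnb2, Rrm2, Mcm6, Stmn1 and Ccnd2 in each library by population, with mean and SD as bars. Top2a, Rrm2 and Stmn1 are below every NK and DN library in all 8 DP and FMSP libraries, Mcm6 overlaps between populations, and Ccnd2 is lowest in the 3 DN libraries.

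The first question is whether ILC1s that express granzyme C differ from NK cells in these genes. In DP against NK cells, Stmn1 and Cdkn1a fell and no member rose. Stmn1 averaged 48.5 ± 19.96 CPM in DP and 161 ± 29.9 CPM in NK cells, a log2 fold change of -1.73 ± 0.44 (SE, edgeR quasi-likelihood test, adjusted p = 0.0346). Cdkn1a averaged 5.63 ± 0.772 CPM in DP and 27.4 ± 12.7 CPM in NK cells, a log2 fold change of -2.28 ± 0.59 (edgeR, adjusted p = 0.0418). These 2 of 52 stood beside 4.08% of all genes called in either direction and 1.58% called lower, a share near the background. At an unadjusted p below 0.05, 10 members were lower and 0 higher, where 6.73% of all genes were lower and 7.73% higher. The median log2 fold change was -1.17 over the mitotic genes, -0.25 over the S phase genes and 0.03 over all genes tested, and 23 of the 25 mitotic genes were below 0, as were 47.4% of all genes. E2f2 at -3.75 ± 1.12 (edgeR, adjusted p = 0.0903), Nusap1 at -1.71 ± 0.53 (0.102), Top2a at -1.59 ± 0.53 (0.142) and Ccnb2 at -1.51 ± 0.53 (0.165) did not pass. DESeq2 called 7 members lower, Stmn1, Cdkn1a, E2f2, Nusap1, Top2a, Ccnb2 and Bub1, against 4.49% of all genes lower. With 1 library left out, Stmn1 kept its call in 2 of 8 fits (adjusted p from 0.0376 to 0.120) and Cdkn1a in 0 of 8 (0.0541 to 0.124).

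FMSP against NK cells asks the same of ILC1s that carry the mark without present granzyme C protein, at the lower Gzmc RNA level given above. Stmn1 fell here too, with 39.9 ± 16.4 CPM in FMSP and 161 ± 29.9 CPM in NK cells and a log2 fold change of -2.02 ± 0.44 (edgeR, adjusted p = 0.0147). It was the only member called, beside 4.07% of all genes called in either direction and 1.59% called lower. Without adjustment, at p below 0.05, 9 members were lower and 0 higher, where 5.71% of all genes were lower and 8.36% higher. The median was -1.25 over the mitotic genes, -0.34 over the S phase genes and 0.11 over all genes. Ccnb2 at -1.97 ± 0.53 (edgeR, adjusted p = 0.0523), Top2a at -1.73 ± 0.54 (0.102) and Kif11 at -2.50 ± 0.87 (0.168) did not pass, although every FMSP library was below every NK library. With the mouse as a block, 5 members fell, namely Stmn1 (adjusted p = 0.0037), Rrm2 (0.0334), Ccnb2 (0.0335), Top2a (0.0369) and Cenpe (0.0449), against 5.31% of all genes called lower. Leaving out the FMSP library of mouse 4 (adjusted p = 0.0592), that of mouse 5 (0.0555) or the 3 libraries highest in hepatocyte markers (0.0794) ended the Stmn1 call. DESeq2 called 4 members lower, Stmn1, Ccnb2, Top2a and Kif11, against 3.51% of all genes lower. DP and FMSP share the NK libraries in these comparisons, so their values are not independent of each other.

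Within each of mice 4, 5 and 6, DP lay below the NK cells of its mouse for 26 of the 52 genes, 16 of them mitotic, where 21.1% of all genes did so. FMSP lay below for 32 genes, 17 of them mitotic, where 20.8% of all genes did so. With the libraries of mice 4 to 6 alone, 5 members fell in DP against NK cells, namely Stmn1 (edgeR, adjusted p = 0.00641), Cdkn1a (0.0293), E2f2 (0.0377), Mki67 (0.0391) and Top2a (0.0393), and 4.51% of all genes were called lower. In FMSP against NK cells 4 fell, namely Stmn1 (0.00256), Ccnb2 (0.0369), Top2a (0.041) and Mcm4 (0.0482), and 4.78% of all genes were called lower.

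DN against NK cells asks whether ILC1s sorted with neither granzyme C protein nor the mark differ from NK cells. No member passed with edgeR, beside 2.99% of all genes called, although every one of the 25 mitotic genes and 17 of 21 S phase genes had a fitted log2 fold change above 0, as did 58.5% of all genes. Of the members, 19 at an unadjusted p below 0.05 were higher and 2 were lower, where 9.83% of all genes were higher and 6.56% lower. DESeq2 called 7 higher and 1 lower, where 5.9% of all genes were higher and 3.71% lower. The 7 were Cdc20, Birc5, Cdk1, Rrm2, Tyms, Plk1 and Gins2, and the lower was Ccnd2. In the edgeR fit Gins2 averaged 38.2 ± 27.2 CPM in DN and 12.2 ± 4.52 CPM in NK cells, at 1.64 ± 0.44 (adjusted p = 0.0589). Cdk1 averaged 50.1 ± 39.9 CPM in DN and 11.9 ± 5.43 CPM in NK cells, at 2.07 ± 0.56 (adjusted p = 0.0642). Tyms was at 1.20 ± 0.34 (edgeR, adjusted p = 0.0788), Cdc20 at 2.72 ± 0.83 (0.105), Ccnb1 at 3.55 ± 1.09 (0.106) and Rrm2 at 1.61 ± 0.52 (0.128). Ccnd2 was at -0.68 ± 0.22 (0.133) and Ccnd3 at -0.67 ± 0.26 (0.215). With DN of mouse 6 left out, Cdk1 (adjusted p = 0.0444) and Gins2 (0.0341) were called higher.

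Most of this difference between DN and NK cells rested on DN of mouse 2. Without it the median over the mitotic genes was 0.45 in place of 1.49, that over the S phase genes 0.45 in place of 1.20, and that over all genes 0.01 in place of 0.17. The members at an unadjusted p below 0.05 dropped to 3 higher (Tyms, Gins2 and Cdk1) and 2 lower (Ccnd2 and Cdkn1a), where 6.77% of all genes were higher and 6.3% lower. Tyms was then at 0.99 ± 0.37 (edgeR, adjusted p = 0.263) and Cdk1 at 1.19 ± 0.54 (0.371). Cdkn1a was at -1.29 ± 0.57 (0.357), where the 2 remaining DN libraries had 8.39 and 14.2 CPM against 17.8 to 45.96 CPM in NK cells. DESeq2 then called 0 members higher and 1 lower, Ccnd2, where 3.92% of all genes were higher and 4.43% lower.

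The ILC1 populations were sorted by granzyme C protein and mark, and DP against DN sets cells sorted for both beside cells sorted for neither. No member passed with edgeR, beside 0.0584% of all genes, of which 10 passed. At an unadjusted p below 0.05, however, 34 members were lower in DP cells and 1, Ccnd2, was higher, where 7.01% of all genes were lower and 3.24% higher. All 25 mitotic genes and 20 of 21 S phase genes were below 0, as were 55.4% of all genes, with a median of -2.83 over the mitotic genes, -0.96 over the S phase genes and -0.09 over all genes. The DP and DN libraries did not overlap for 30 members lower in DP, against 4.12% of all genes, and for 2 higher in DP, Ccnd2 and Ccnd3, against 4.22%. DESeq2 called 19 members lower and 1 higher, where 2.42% of all genes were lower and 0.927% higher. Top2a averaged 11.96 ± 2.61 CPM in DP and 93.6 ± 73.5 CPM in DN cells, at -2.97 ± 0.58 (edgeR, adjusted p = 0.0888). Stmn1 averaged 48.5 ± 19.96 CPM in DP and 239 ± 172 CPM in DN cells, at -2.30 ± 0.46 (edgeR, adjusted p = 0.100). Prc1 was at -2.83 ± 0.58 (0.103), Ccnb2 at -2.73 ± 0.57 (0.116), Rrm2 at -2.55 ± 0.53 (0.116), Nusap1 at -2.54 ± 0.57 (0.152), Cdk1 at -2.42 ± 0.56 (0.179), Birc5 at -3.02 ± 0.71 (0.181) and Uhrf1 at -2.46 ± 0.58 (0.189). Ccnd2 went the other way at 0.77 ± 0.22 (edgeR, adjusted p = 0.324). With DN of mouse 6 left out, the DN library with the lowest mitotic sum, 4 members were called lower, namely Stmn1 (adjusted p = 0.0296), Nusap1 (0.0395), Rrm2 (0.0397) and Top2a (0.0397).

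Without DN of mouse 2 the difference between DP and DN cells was smaller. The median was -1.87 over the mitotic genes, -0.55 over the S phase genes and 0.00 over all genes. Of the members, 16 at an unadjusted p below 0.05 were lower and 1 higher, where 3.62% of all genes were lower and 2.76% higher. Of these 16, 11 were mitotic and 4 were S phase genes. DESeq2 without that library called 5 members lower, Top2a, Prc1, Nusap1, Ccnb2 and Stmn1, and 1, Ccnd2, higher, where 0.836% of all genes were lower and 1.36% higher. With only 2 DN libraries left, 31 members lay below them in DP without overlap, where 11.2% of all genes did so. Top2a was at -2.13 ± 0.54 (edgeR, adjusted p = 0.408), Stmn1 at -1.59 ± 0.42 (0.470), Nusap1 at -2.05 ± 0.59 (0.596), Rrm2 at -1.40 ± 0.41 (0.644) and Mki67 at -2.55 ± 0.98 (0.754). With all DN libraries Mki67 had been at -2.68 ± 0.90 (edgeR, adjusted p = 0.369).

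**Figure D4:**
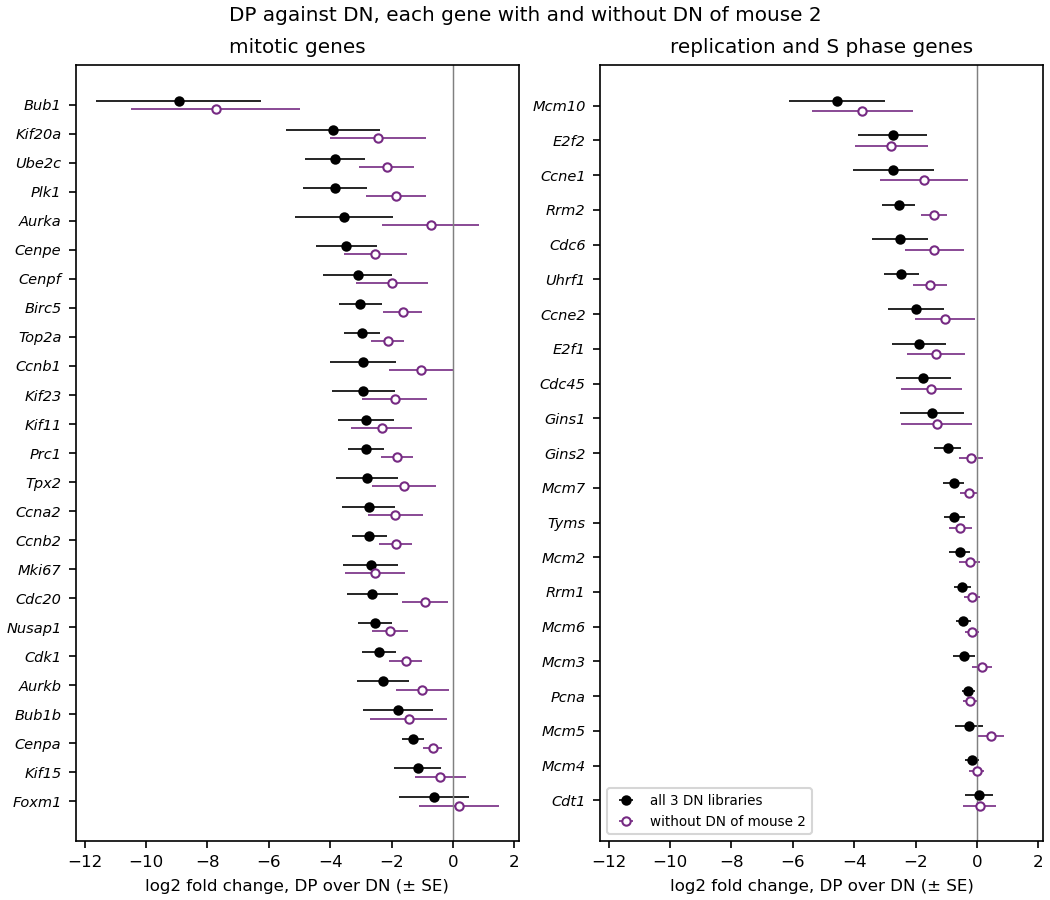
Fitted log2 fold change of DP over DN (± SE) for the 25 mitotic genes (left) and the 21 replication and S phase genes (right), with all 3 DN libraries (filled) and without DN of mouse 2 (open). All 25 mitotic genes are below 0 with all libraries, at a median of -2.83, and the median without DN of mouse 2 is -1.87.

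FMSP against DN cells, sorted with the mark alone and with neither, gave the same direction. No member passed with edgeR, beside 0.00584% of all genes (1 gene). Of the members, 32 at an unadjusted p below 0.05 were lower and 1 higher, where 4.08% of all genes were lower and 2.72% higher. The libraries did not overlap for 25 members lower in FMSP, against 2.55% of all genes. DESeq2 called 15 lower and 0 higher, where 0.767% of all genes were lower. The median was -3.11 over the mitotic genes and -0.97 over the S phase genes, against -0.02 over all genes. Ccnb2 was at -3.19 ± 0.58 (edgeR, adjusted p = 0.175), Stmn1 at -2.58 ± 0.47 (0.175), Top2a at -3.11 ± 0.58 (0.191), Cdk1 at -2.93 ± 0.57 (0.206), Rrm2 at -2.63 ± 0.54 (0.209) and Birc5 at -3.32 ± 0.72 (0.278). Without DN of mouse 2, 15 members were lower at an unadjusted p below 0.05, where 1.94% of all genes were, and the median was -1.79 over the mitotic genes and -0.71 over the S phase genes. With DN of mouse 6 left out, Stmn1 was called lower (adjusted p = 0.0345). Without DN of mouse 2, Top2a was at -2.27 ± 0.54 (edgeR, adjusted p = 0.573) and Ccnb2 at -2.33 ± 0.55 (0.573). DESeq2 then called 4 members lower, Ccnb2, Top2a, Stmn1 and Cdk1, where 0.259% of all genes were lower, and 27 members did not overlap, where 7.57% of all genes lay lower without overlap. DP and FMSP cells are compared with the same 3 DN libraries, so the 2 comparisons are not independent.

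DP against FMSP cells, which both carry the mark and differ in the protein, showed no member past the test with edgeR, beside 0.00584% of all genes (1 gene). No member reached an unadjusted p below 0.05 in either direction, where 4.49% of all genes did, and DESeq2 called none. The median was 0.21 over the mitotic genes, 0.04 over the S phase genes and -0.02 over all genes. Stmn1 was at 0.28 ± 0.43 (edgeR, adjusted p = 1.0). E2f2 alone did not overlap, at 0 to 3.60 CPM in DP and 4.01 to 6.32 CPM in FMSP cells, against 0.648% of all genes lower without overlap. A p that misses the threshold does not show that the populations are equal in these genes.

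Other genes of the same pathways were counted from lists that hold no member. In DP against NK cells 0 of 38 replication genes, 3 of 46 mitosis genes and 0 of 35 G1 and quiescence genes passed. All 3 were lower, where 1.58% of all genes were called lower. No replication gene, 7 mitosis genes (all lower) and 6 G1 and quiescence genes had an unadjusted p below 0.05, where 14.5% of all genes did. DESeq2 called 0, 5 (all lower) and 3, where 4.49% of all genes were lower and 5.32% higher. With the mouse as a block, 5 mitosis genes were lower and 1 higher and 4 G1 and quiescence genes were lower and 2 higher, where 4.75% of all genes were lower and 4.86% higher. Racgap1, the GTPase-activating subunit of the centralspindlin complex in cytokinesis, had 13.3, 18.1, 16.2 and 27.0 CPM in DP cells of mice 3 to 6 and 105, 93.2, 84.2 and 99.9 CPM in NK cells of mice 1, 4, 5 and 6. It fell by 2.36 on the log2 scale (SE 0.29, edgeR, adjusted p = 0.000144) and was called in 8 of 8 fits with a library left out. FMSP cells had 19.9, 26.6, 12.4 and 17.1 CPM of Racgap1 and DN cells 63.4, 37.2 and 42.0 CPM, so DN lay between the marked ILC1s and NK cells. Cdc25b, a phosphatase that activates the mitotic kinase, averaged 9.88 ± 1.77 CPM in DP and 50.6 ± 12.1 CPM in NK cells, at -2.36 ± 0.38 (edgeR, adjusted p = 0.0015). Nek2, a centrosome kinase, had no count in any DP library and 3.19 ± 1.39 CPM in NK cells, at least 259-fold lower at a floor of 3 counts over the 4 DP libraries. In FMSP against NK cells 1 of 38, 2 of 46 and 1 of 35 passed, all lower, where 1.59% of all genes were called lower. With the mouse as a block 1, 3 and 4 were lower and 0, 0 and 1 higher, where 5.31% of all genes were lower and 4.51% higher. Without that block Racgap1 fell by 2.33 (SE 0.29, edgeR, adjusted p = 0.000165) and Cdc25b by 1.88 (SE 0.38, adjusted p = 0.00812). Prim1, a primase subunit, was at -1.13 ± 0.27 (0.023) and Tfdp1, a partner of E2F factors, at -1.43 ± 0.38 (0.0484). Without the 3 libraries highest in hepatocyte markers, Cdc25b (edgeR, adjusted p = 0.0676) and Prim1 (0.0585) were not called in FMSP cells, while Racgap1 (0.00354) and Tfdp1 (0.0203) were. With 1 library left out, Racgap1 and Cdc25b were called in 8 of 8 fits, Prim1 in 4 and Tfdp1 in 0.

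In DN against NK cells 3 of 38 replication genes were higher, 0 of 46 mitosis genes passed (10 higher and 2 lower at an unadjusted p below 0.05, and 2 and 1 by DESeq2), and of 35 G1 and quiescence genes 1 was higher and 1 lower, where 1.81% of all genes were called higher and 1.18% lower. Tk1, the thymidine kinase of S phase, had 62.3, 38.0 and 19.0 CPM in DN cells of mice 2, 4 and 6 and 5.46, 6.22, 15.5 and 8.89 CPM in NK cells, at 2.14 ± 0.43 (edgeR, adjusted p = 0.0107). Gmnn, which blocks relicensing, was at 1.26 ± 0.31 (0.0424), Ticrr, which helps origins fire, at 2.90 ± 0.74 (0.0471), and Cdk2, the kinase of cyclin E, at 1.13 ± 0.27 (0.0356). Cdkn2d, an inhibitor of the cyclin D kinases, averaged 100 ± 14.6 CPM in DN and 214 ± 66.7 CPM in NK cells, at -1.09 ± 0.28 (0.0459). In the mitosis list 1 gene was higher and 1 lower at that p without DN of mouse 2, and DESeq2 called the same numbers. Without DN of mouse 2 none of the 5 was called with edgeR, with Tk1 at 1.65 and an edgeR adjusted p of 0.0706. Of the 38 replication genes, 8 were higher at an unadjusted p below 0.05 and 6 by DESeq2, where 9.83% and 5.9% of all genes were. Without DN of mouse 2 these counts were 4 and 3, where 6.77% and 3.92% of all genes were higher. With the mouse as a block the higher calls were lost (edgeR, adjusted p = 0.0877 for Tk1, 0.169 for Gmnn, 0.131 for Ticrr and 0.123 for Cdk2), while Cdkn2d kept its call (0.00213). With 1 library left out, Tk1 was called in 6 of 7 fits, Gmnn, Ticrr and Cdk2 in 1 each and Cdkn2d in 0. In DP against DN, FMSP against DN and DP against FMSP no gene of these lists passed with edgeR. The mitosis list had a median of -2.14 in DP against DN and -2.23 in FMSP against DN, and 26 of 46 were lower at an unadjusted p below 0.05 in each, where 7.01% of all genes were lower in DP and 4.08% in FMSP. Without DN of mouse 2 the medians were -1.45 and -1.36, and 11 and 17 genes were lower, where 3.62% and 1.94% of all genes were. DESeq2 called 14 of the 46 lower in DP and 11 in FMSP against DN cells, where 2.42% and 0.767% of all genes were lower. Without DN of mouse 2 it called 6 and 3, where 0.836% and 0.259% of all genes were lower. Of the replication genes 11 were lower at that p in DP and 15 in FMSP against DN cells, and DESeq2 called 5 and 4, beside the same shares of all genes. Without DN of mouse 2 these counts were 3 and 5 at that p, and 0 and 1 with DESeq2.

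Markers of other cell types moved with some of these groups. Of 8 T cell markers, 5 reached 10 CPM in the mean of DP and FMSP cells, 6 in DN cells and 2 in NK cells, and their sum was 426 to 1219 CPM in DP, 597 to 1620 in FMSP, 618 to 1789 in DN and 22.6 to 77.8 CPM in NK cells. The highest of the 15 T cell sums was that of DN of mouse 2, which also had the highest mitotic sum. Hepatocyte markers (12 genes) summed to 852 and 1953 CPM in the FMSP libraries of mice 5 and 6 and to 833 CPM in the DN library of mouse 2, against 73.9 to 382 CPM in the other 12 libraries. These FMSP libraries had mitotic sums of 135 and 146 CPM, the lowest and the highest of their population. The FMSP libraries of mice 3 and 4 had 140 and 136 CPM. Of 5 markers of mature NK cells, 3 reached 10 CPM in the mean of DP, 4 in that of FMSP and 5 in that of DN cells, and they summed to 70.9 to 135 CPM in DP, 117 to 167 in FMSP, 299 to 608 in DN and 2951 to 4943 CPM in NK cells. The 4 ILC1 markers summed to 1797 to 2016 CPM in DP, 1521 to 1728 in FMSP, 972 to 1499 in DN and 14.1 to 24.9 CPM in NK cells. B cell markers summed to 36.1 to 249 CPM and endothelial markers to 46.9 to 153 CPM over all 15 libraries. Neutrophil markers summed to 0.316 to 186 CPM with Elane at 0 in every DP and DN library, Kupffer cell markers to 12.1 to 223 CPM with the highest in DN of mouse 2, and red cell markers to 597 to 12061 CPM with Klf1 at 0 in every DP, DN and NK library. The part of T cell, NK, hepatocyte or other foreign RNA in the cell cycle differences was not tested.

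ATAC-seq, which counts transposase cuts in open chromatin, covered ILC1s of liver and salivary gland and NK cells of liver and spleen with 2 libraries each of 50000 cells, at 5609587 to 26944890 counts in peaks. The sample labels name GzmC+GzmcFM+ ILC1s and S1pr5eGFP+ NK cells, while the study design gives gates on CD49a and CD49b, so the gate is uncertain and these cells cannot be matched to DP, FMSP or DN. The authors typed 54 peaks as promoter peaks of 44 members. In liver ILC1s against liver NK cells 2 of the 54 rose and 0 fell, where 13.7% of all promoter peaks rose and 4.86% fell. The median log2 fold change was 0.16, against 0.19 over all promoter peaks, so by the median the members lay near the background. A smaller share of them was called in either direction than of all promoter peaks. The Birc5 peak (chr11:117848171-117849560) had 38.9 and 48.1 CPM in liver ILC1s and 22.2 and 24.5 CPM in liver NK cells, a log2 fold change of 0.91 ± 0.19 (edgeR, adjusted p = 7.47e-05). A Cdc6 peak at chr11:98917638-98918891, downstream of the promoter printed above, had 21.8 and 26.1 CPM in liver ILC1s and 12.8 and 15.4 CPM in liver NK cells, at 0.78 ± 0.21 (edgeR, adjusted p = 0.00316). The Birc5 call held with any 1 liver library left out, and the Cdc6 call was lost without the second liver ILC1 library (adjusted p = 0.143) or the first liver NK library (0.0998). The Mki67 peak (chr7:135715343-135717051) was at 0.41 ± 0.20 (edgeR, adjusted p = 0.127) and the Top2a peak (chr11:99023689-99024816), which holds the printed promoter, at 0.14 ± 0.19 (0.652).

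Salivary gland ILC1s against spleen NK cells gave more calls, in a comparison where tissue and cell type cannot be told apart. Here 2 of the 54 promoter peaks rose and 21 fell, where 15.7% of all promoter peaks rose and 21.5% fell. The median was -0.29, against -0.10 over all promoter peaks. The Cdc20 peak (chr4:118436597-118437987), which covers the printed promoter, had 24.8 and 22.8 CPM in salivary gland ILC1s and 50.8 and 48.0 CPM in spleen NK cells, at -1.05 ± 0.18 (edgeR, adjusted p = 2.96e-08). The Top2a peak had 32.0 and 33.2 CPM in salivary gland ILC1s and 55.4 and 53.5 CPM in spleen NK cells, at -0.74 ± 0.18 (edgeR, adjusted p = 0.000134). The Cdc6 promoter peak (chr11:98907321-98908241) was at -0.81 ± 0.18 (2.95e-05), the Bub1b peak at -0.91 ± 0.18 (2.8e-06) and the Stmn1 peak at -0.59 ± 0.18 (0.00403). Cenpf had 2 called peaks, at -3.13 ± 0.46 (1.14e-10) and -0.90 ± 0.19 (1.07e-05). Rises were seen at Mcm6 (0.51 ± 0.19, edgeR, adjusted p = 0.0205) and Cdkn1a (0.50 ± 0.19, 0.0165), and neither was called in a fit without 1 of the 4 libraries compared. The peak of Mcm5 (chr8:75108422-75110098) was at -0.10 ± 0.20 in liver and -0.26 ± 0.19 across the other pair, and was called in neither (edgeR, adjusted p = 0.771 and 0.252). The difference between both contrasts was called at 17 of the 54 peaks, all with a higher value in liver, where 26.2% of all promoter peaks were called. That share counts both directions. The share of all promoter peaks called with a higher value in liver was not counted, so the members cannot be placed against it. Over all promoter peaks too the median was higher in liver, at 0.19 against -0.10. The median percentile of the members' most covered promoter peak among all promoter peaks was 67.2 in liver ILC1s, 71.2 in liver NK cells, 65.4 in salivary gland ILC1s and 73.4 in spleen NK cells.

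**Figure D5:**
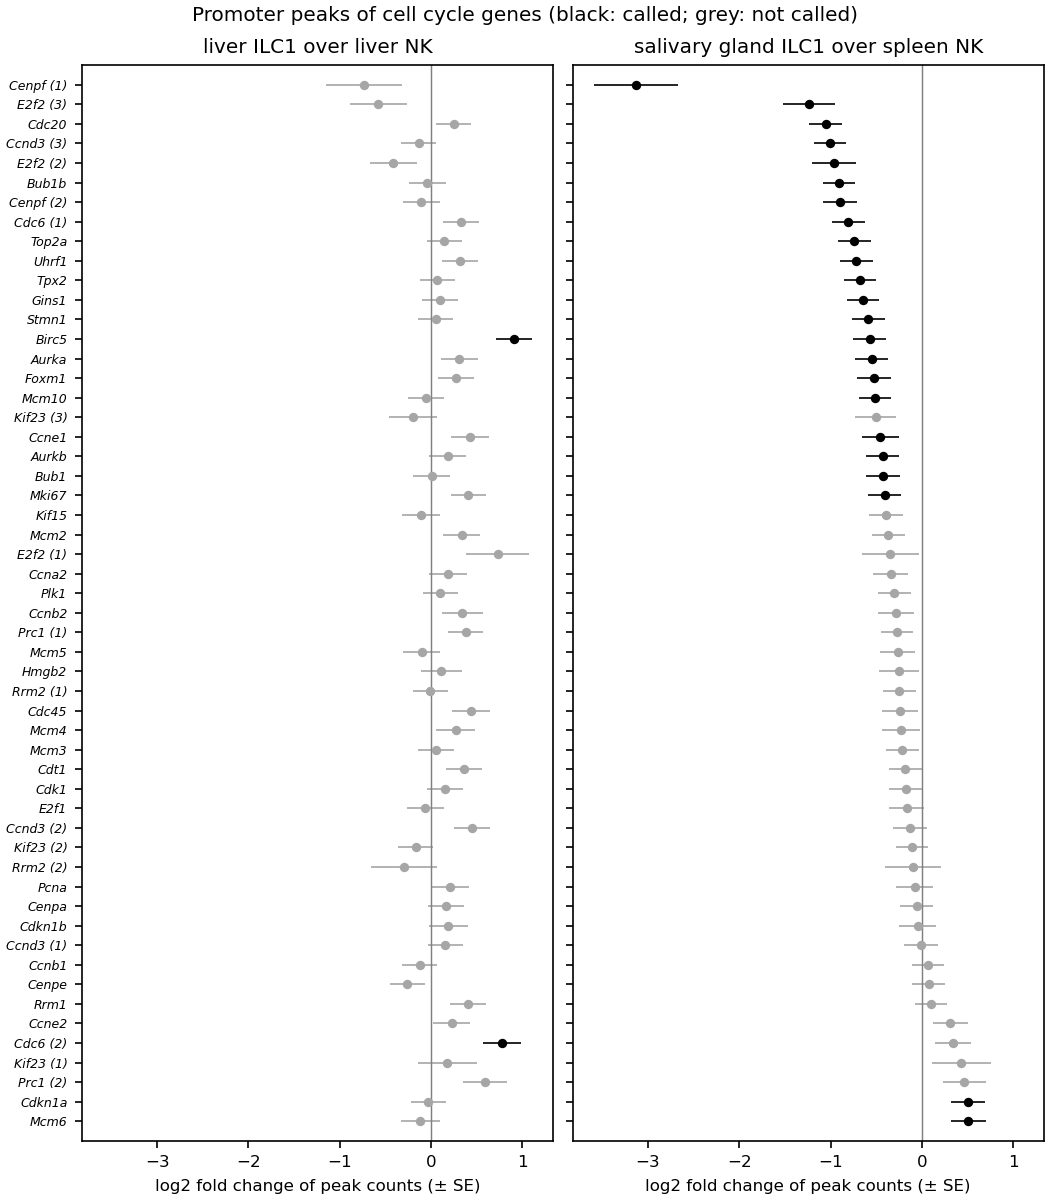
Log2 fold change (± SE) of counts in the 54 promoter peaks of 44 cell cycle genes, for liver ILC1s over liver NK cells (left) and salivary gland ILC1s over spleen NK cells (right), with called peaks in black and others in grey; numbers in brackets count several peaks of 1 gene by position. In liver 2 peaks are called, both higher, and across salivary gland and spleen 23 are called, 21 of them lower.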

How the data were processed

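RNA-seq covered 15 liver libraries and ATAC-seq 8 libraries. The RNA values are estimated counts per gene, deposited as whole numbers, and the submitters' processing notes name Salmon 1.6 and DESeq2. The ATAC values are counts of reads per peak in the table deposited by the authors, with the peak types as the authors assigned them, and the notes name Bowtie2, SAMtools, MACS2 and the mm10 build. The roles of these tools are not given in the sources used here.

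Both tables were tested with edgeR 4.0.16 in R 4.3.3 (quasi-likelihood, TMM scaling, filterByExpr with a minimum count of 10, robust estimation, 1 mean per group, residual degrees of freedom of 11 in the RNA fit and 4 in the ATAC fit). A call is a Benjamini-Hochberg adjusted p below 0.05 over all genes or peaks tested. CPM uses TMM-adjusted totals. ATAC libraries held 5609587 to 26944890 counts in peaks. Alternatives were DESeq2 1.42.0, other scalings, no filter, libraries left out, mice 4 to 6 only and the mouse as a block. DESeq2 and group overlap without DN of mouse 2 were added after seeing the data. Libraries of 1 mouse come from the same animal. Their deviations from the group means correlated at a median of 0.113 over 16 pairs, against -0.0266 over 68 pairs of different mice. ATAC replicates share only a number, and whether they are separate animals is not stated, so their p-values may measure technical spread.

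The members and lists were chosen with earlier results of these data known. All 52 members could be named, with the called genes of the other lists and the called promoter peaks, plus those of Mki67, Top2a and Mcm5. The RNA table held 26 entries named like dates, which stayed in the fits unnamed. Motif matches and sequences come from RefSeq promoters (GRCm38.p6).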

Additional observations from a re-analysis of the deposited data

Results flagged for a closer look

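Of 96 sets of 4 libraries checked for a single stray value, 4 held one, and chance alone gives about 1 in 20. Kif11 had 29.5 CPM in NK cells of mouse 5, against 8.29 to 9.97 CPM in the other NK libraries. Ccnb1 had 27.4 CPM in DP cells of mouse 3, against 1.42 to 3.35 CPM in the other DP libraries. Nek2, a centrosome kinase outside the 52 genes, had 2.64 CPM in FMSP cells of mouse 3, against 0 to 0.229 CPM in the others. Ccnd3 had 1800 CPM in FMSP cells of mouse 3, against 1010 to 1040 CPM in the others. DP of mouse 3 (1612 CPM) and NK of mouse 1 (1901 CPM) were also the highest of their populations for Ccnd3. DN of mouse 2 (747 CPM) was the lowest of the DN libraries.

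At 17 promoter peaks the ILC1 minus NK difference in liver differed from that between salivary gland and spleen (edgeR interaction term, adjusted over all peaks), out of 54, where 26.2% of all promoter peaks were called. That share counts both directions, while all of these peaks were higher in liver, so the members cannot be placed against it. In log2 units, liver minus the other pair, the gap was 2.397 and 0.791 at the Cenpf peaks, 1.478 at Birc5, 1.3 at Cdc20, 1.131 at Cdc6 and 1.029 at Uhrf1. It was 0.883 at Top2a, 0.878 at Ccne1, 0.869 at Ccnd3, 0.864 at Bub1b, 0.86 at Aurka and 0.816 at Mki67. It was 0.799 at Foxm1, 0.747 at Tpx2, 0.744 at Gins1, 0.7 at Mcm2 and 0.649 at Prc1. Tissue and cell type cannot be told apart in the second pair.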

How the results depend on the processing

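The number of cell cycle genes called depended on the tool and the libraries. DESeq2 called 7 in DP against NK, 4 in FMSP against NK, 8 in DN against NK, 20 in DP against DN and 15 in FMSP against DN, in place of 2, 1, 0, 0 and 0. With DN of mouse 2 left out as well, a setting chosen after seeing the data, DESeq2 called 1 in DN against NK, 6 in DP against DN and 4 in FMSP against DN. Mice 4 to 6 alone gave 5 in DP, 4 in FMSP and 1 in DN against NK. FMSP against NK gave 5 with the mouse as a replicate block, 3 with only both populations in the fit and 0 without the 3 libraries high in hepatocyte markers. The block changed no other count of member calls in the RNA. Scaling by library totals alone gave 2 in DN against NK and 1 in DP against DN, and moved the median of all genes in DN against NK to 0.37 (log2) in place of 0.17. With 1 library left out, the calls ran from 0 to 2 in DP against NK, 0 to 1 in FMSP against NK, 0 to 2 in DN against NK, 0 to 4 in DP against DN and 0 to 1 in FMSP against DN. DP against FMSP gave 0 under every alternative run. For promoter peaks, leaving out 1 library gave 1 to 6 calls in liver in place of 2 and 15 to 20 across salivary gland and spleen in place of 23, and counting all peaks assigned to a member gave 7 and 43. With the ATAC replicate number as a block the counts were 2 and 24. The Top2a promoter peak in liver ran from -0.006 (without the second liver ILC1 library) to 0.231 with 1 library left out, in place of 0.143, and passed in no case. The cause of these shifts was not tested. A lone library was assumed to vary like the other groups.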
